A study of Mus musculus with 6 samples.

Results

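The Ink4-Arf locus, the p53 pathway and the genes that start apoptosis were followed through 9 mouse genes: Cdkn2a, Cdkn2b, Trp53, Mdm2, Cdkn1a, Pmaip1, Bbc3, Bax and Casp8. They were found on the arrays by the gene symbol of the RefSeq transcript that each probe is annotated to. They comprise 11 of 41174 probes and 9 of the 17174 genes with a symbol, and all 9 genes passed the filter on dim probes. The set was put together after the difference between the lines described here was known, so the values of that difference are given as a description, with no test.

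The cells are P19, a mouse embryonal carcinoma line that yields neurons and glia when aggregated in the presence of retinoic acid. A line named AICD/P19, which expresses AICD, the intracellular fragment that gamma-secretase cuts from the amyloid precursor protein, was set against pCDNA/P19, which carries the empty vector. Each line was sampled undifferentiated, with no retinoic acid, aggregated (4 days as aggregates in 5e-07 M all-trans-retinoic acid) and differentiated (2 more days after replating onto dishes or coated disks). Total RNA of each line in each state was hybridised to 1 single-colour array, 6 arrays in all, so no line and state has a replicate. The labels do not say whether either line is a single clone, and the expression of the AICD insert itself was not analysed here.

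Cdkn2a encodes, from separate first exons, Ink4a, which holds Cdk4 and Cdk6 inactive, and Arf, which holds back Mdm2. Cdkn2b, next to it, encodes Ink4b, a further inhibitor of Cdk4 and Cdk6, and Polycomb complexes keep the locus silent in many embryonic and stem cells. Trp53 encodes the transcription factor p53, Mdm2 the ubiquitin ligase that destroys p53 and is itself a p53 target, and Cdkn1a the Cdk inhibitor p21, a main target in cell cycle arrest. Pmaip1 (Noxa) and Bbc3 (Puma) are p53 targets that bind and block survival proteins of the BCL2 family, Bax permeabilises the mitochondrial outer membrane, and Casp8 is the initiator caspase of death receptors.

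Signals are given as normalized log2 signal, log2 of the spot brightness relative to the 75th percentile of the array, so 1 unit is a doubling. On each array 62.0% to 65.9% of spots lay well above background as called by the scanner software, 0 spots were saturated, and replicate spots of a probe had a median SD of 0.0679 to 0.0820. The undifferentiated pair of arrays lay on 1 slide and the other 4 arrays on another, so the step to aggregation and the slide cannot be told apart; each difference between the lines, and the step to the differentiated state, lies within a slide. Of 12 pluripotency markers, 10 were on the array, and 9 of them lay well above background on both undifferentiated arrays. The log2 of the summed pluripotency signal was 7.12, 4.31 and 4.38 in undifferentiated, aggregated and differentiated AICD cells, against 7.13, 3.55 and 2.53 in vector cells. Pou5f1 (Oct4) was at 6.48, 3.19 and 3.25 in AICD cells and at 6.37, -2.40 and -0.64 in vector cells in the same order of states. It was the brightest of these markers on every AICD array, so it weighs most in those sums. The medians of the list were 1.26, -2.03 and -2.21 in AICD cells and 1.48, -2.36 and -2.39 in vector cells. In aggregated cells Gdf3 was higher in the AICD line (0.82 against -4.97) and Sox2 lower (2.89 against 3.37). The summed neuron signal (11 of 12 markers on the array) was 4.06, 6.43 and 7.31 in AICD cells and 3.95, 5.75 and 7.66 in vector cells. The summed signal of 10 mesenchyme markers was 3.85, 3.42 and 2.97 in AICD cells, where 9, 7 and 6 of them lay well above background, and 3.82, 4.08 and 5.32 in vector cells, where 8, 10 and 10 did. Acta2 was the brightest of these markers on every AICD array, so it weighs most in those sums (2.81 in differentiated AICD cells against 3.08 in vector cells). For mesenchyme the list medians were -2.67, -4.16 and -4.36 in AICD cells and -2.29, -1.12 and 0.13 in vector cells. In undifferentiated cells Col3a1 was higher in the AICD line (-1.58 against -3.61) and Thy1 lower (-3.25 against -0.31). Of the mesenchyme markers, Col1a1 was not well above background on the differentiated AICD array, nor Pdgfrb on the aggregated and differentiated AICD arrays. The summed neural progenitor signal (9 of 10 markers on the array) was 3.91, 4.74 and 4.22 in AICD cells and 3.65, 6.43 and 6.13 in vector cells. Among these markers Hes5, a Notch target, was at -5.06, -5.63 and -5.47 in AICD cells, not well above background when aggregated, and at -1.93, 5.94 and 5.82 in vector cells. Hes5 was the brightest of these markers on the aggregated and differentiated vector arrays, so it weighs most in those sums. The medians of the list were -2.30, -0.31 and -1.28 in AICD cells and -2.30, 0.15 and -0.97 in vector cells. In differentiated cells Nes was higher in the AICD line (3.84 against 3.12) and Neurog2 lower (-1.28 against -0.08). For the 8 muscle and heart markers the sums were 1.81, -0.18 and 0.75 in AICD cells and 2.49, 1.06 and 2.399 in vector cells, for 8 endoderm markers 0.90, 1.27 and 0.57 against -0.05, 1.12 and 0.07, and for 7 glia markers 3.67, 3.51 and 3.77 against 3.45, 3.14 and 3.26. The part of these marker differences in the results below was not tested.

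The 250 bases before each RefSeq start of the locus are shown because the gene pair Cdkn2a and Cdkn2b differed between the lines and followed different courses; capitals mark every CG dinucleotide, where DNA methylation mostly occurs. The sequences are RefSeq's on build GRCm38.p6, minus strand, read 5′ to 3′. The distal start of Cdkn2a lies at chr4:89294620-89294869, the proximal one at chr4:89282193-89282442 and that of Cdkn2b at chr4:89311033-89311282.
Cdkn2a distal start: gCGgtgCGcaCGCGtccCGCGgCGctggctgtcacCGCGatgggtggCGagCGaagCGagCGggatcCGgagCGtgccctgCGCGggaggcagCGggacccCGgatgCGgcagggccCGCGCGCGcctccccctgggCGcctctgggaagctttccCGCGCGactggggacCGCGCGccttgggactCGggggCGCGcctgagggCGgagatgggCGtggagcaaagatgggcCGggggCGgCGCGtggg
Cdkn2a proximal start: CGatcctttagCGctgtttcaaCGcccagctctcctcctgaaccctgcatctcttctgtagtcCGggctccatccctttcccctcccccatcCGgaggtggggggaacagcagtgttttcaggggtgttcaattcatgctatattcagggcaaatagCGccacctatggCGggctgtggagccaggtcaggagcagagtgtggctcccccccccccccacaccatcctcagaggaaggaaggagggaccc
Cdkn2b start: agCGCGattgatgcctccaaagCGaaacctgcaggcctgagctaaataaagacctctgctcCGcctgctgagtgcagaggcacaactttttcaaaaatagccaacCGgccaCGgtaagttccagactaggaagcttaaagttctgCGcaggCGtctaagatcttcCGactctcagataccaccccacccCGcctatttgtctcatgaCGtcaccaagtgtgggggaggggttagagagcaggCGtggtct
The distal window of Cdkn2a holds 40 CG, the proximal window 7 and the Cdkn2b window 12, against a median of 6 over 32851 windows of that length. In 98.7% of those windows there were fewer CG than in the distal window of Cdkn2a. No methylation or binding was measured in this series, so the counts describe the sequence only.

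Cdkn2a had a signal in AICD cells at all 3 states and almost none in vector cells. The signal was -0.32, -1.13 and -2.36 in undifferentiated, aggregated and differentiated AICD cells, against -5.52, -7.50 and -6.21 in vector cells. All 10 spots of the probe lay well above background on each AICD array, while 6 of 9 did so on the undifferentiated vector array and 0 of 10 on each later one. The lines did not overlap: the lowest AICD array stood above every vector array. Undifferentiated AICD cells were 36.8-fold above vector cells (log2 difference 5.20 ± 0.08, standard error over replicate spots, which covers error within arrays only). Aggregated AICD cells were at least 28.0-fold and differentiated AICD cells at least 12.5-fold above vector cells, where a bound sets the signal against the lowest signal called well above background on the dim array. With normexp background correction the log2 differences were 2.79, 2.68 and 1.65. On the log2 scale the bounds were 4.81 in aggregated and 3.64 in differentiated cells, so they hold only for signals without that correction. The same applies to the bounds of Pmaip1 and Casp8 below. These are bulk samples, in which fewer cells of a type and less RNA per cell cannot be told apart.

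Within the AICD line, Cdkn2a was lower at each later state. The log2 difference was -0.82 ± 0.04 for aggregated minus undifferentiated and -1.23 ± 0.05 for differentiated minus aggregated cells (standard error over spots), and differentiated cells were 4.14-fold below undifferentiated ones. In the vector line the aggregated array was at least 1.34-fold below the undifferentiated one. The probe is annotated to 1 of the gene's RefSeq transcripts and its place in the gene was not looked up here, so Ink4a and Arf transcripts cannot be told apart, nor can the signal be assigned to the CG-rich distal start or to the proximal one.

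**Figure D1:**
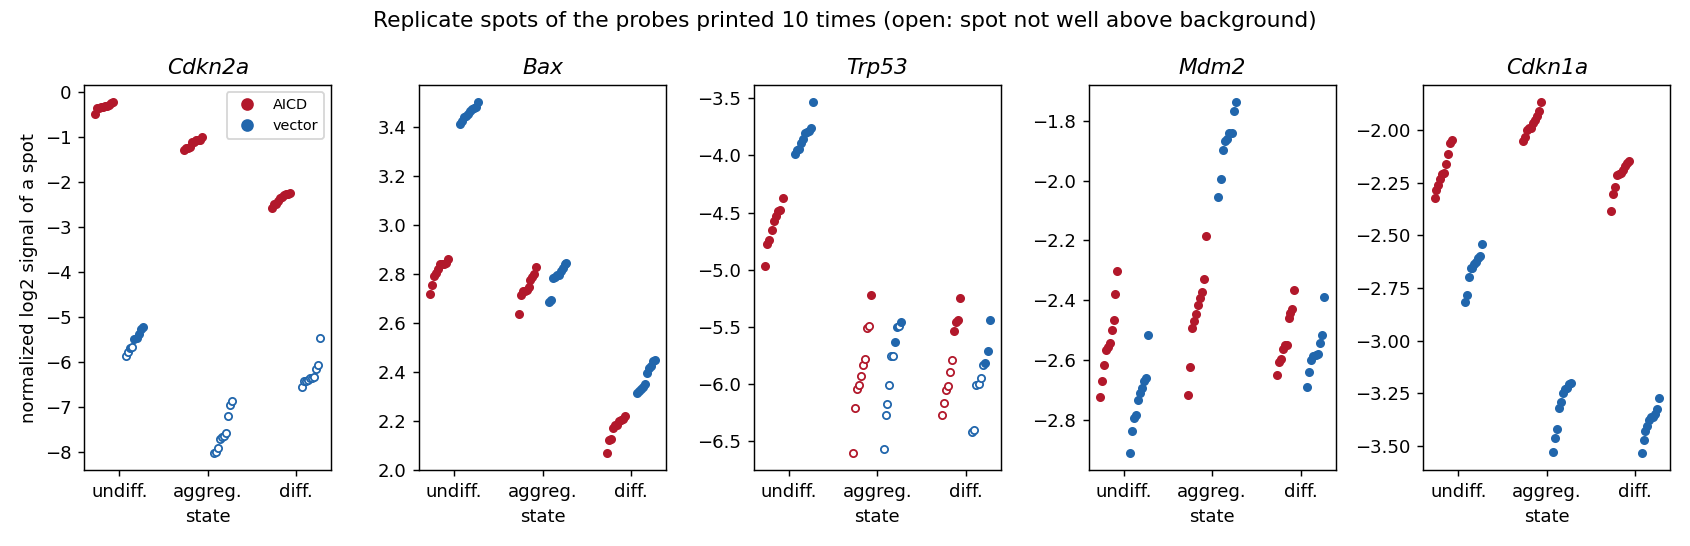
Normalized log2 signal (vertical axis, its own scale for each gene) of every replicate spot of the probes printed 10 times, by state (horizontal axis), AICD in red left of vector in blue. Filled points are spots well above background; the 10 Cdkn2a spots on each AICD array are all filled and lie above every vector spot, and Cdkn1a spots of the lines do not overlap in any state.

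Cdkn2b differed between the lines in undifferentiated and aggregated cells and hardly after replating. Its signal was -1.63, -1.57 and -1.46 in undifferentiated, aggregated and differentiated AICD cells, against -5.02, -3.34 and -1.61 in vector cells. The AICD arrays lay within 0.17 of each other, whereas the vector arrays climbed state by state to the AICD level. AICD cells were thus 10.4-fold above vector cells when undifferentiated, 3.40-fold when aggregated and 1.11-fold when differentiated. The log2 difference in undifferentiated cells was 3.38, and 1.57 with normexp correction. The probe has 1 spot per array, so these values have no error of their own. The undifferentiated vector value, -5.02, lay near the lowest signal well above background on that array, -5.90.

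The step to aggregation was 0.06 in AICD cells and 1.68 in vector cells, and the step to the differentiated state 0.11 in AICD cells and 1.73 in vector cells. Of 11477 genes well above background on all 6 arrays, 327 (2.85%) were at least 2-fold higher at both steps in the vector line. Cdkn2b was the 1 gene of those 327 whose AICD steps were both under 0.25 in size. The pattern and the limit were both set after its values were seen, so the count is only a description. The difference between the lines in these steps was not tested, since each line and state has 1 array.

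**Figure D2:**
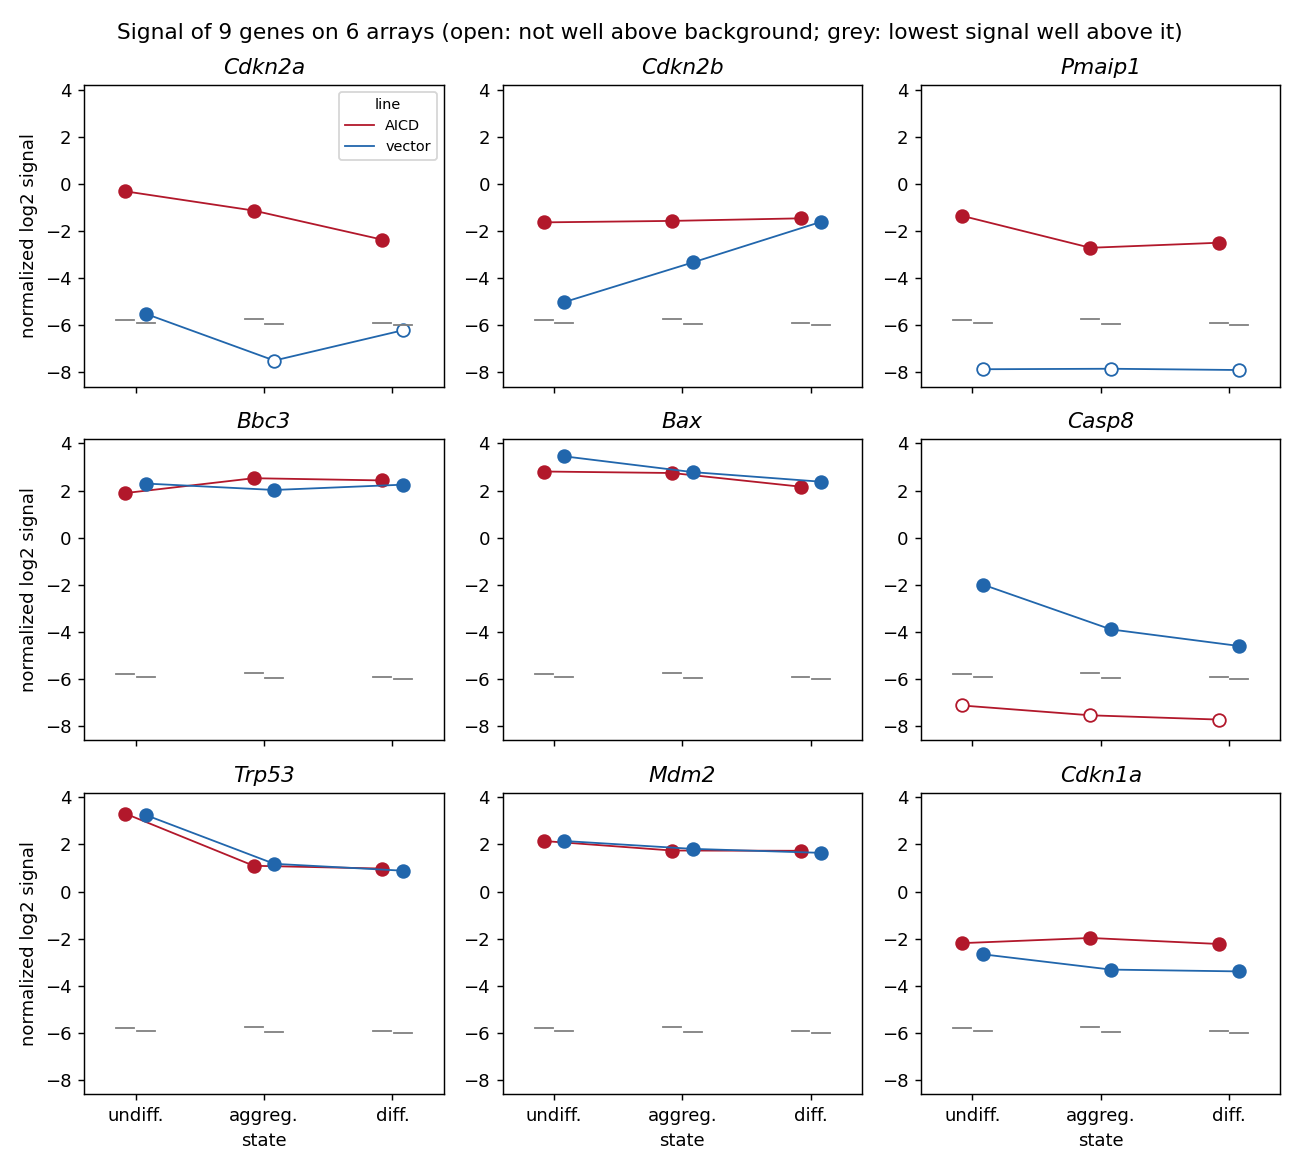
Normalized log2 signal (vertical axis, the same in every panel) of the 9 genes by state (horizontal axis), AICD in red and vector in blue, 1 array per point; for Trp53 and Mdm2 the brighter probe is shown. Open circles were not well above background and grey bars mark the lowest signal that was; the lines differ at every state for Cdkn2a, Pmaip1 and Casp8, and the vector line reaches -1.61 for Cdkn2b against -1.46 in AICD cells.

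Trp53 changed with the state, and the lines lay close together. Its brighter probe has 1 spot per array. The signal there was 3.31, 1.096 and 0.98 in undifferentiated, aggregated and differentiated AICD cells, against 3.25, 1.18 and 0.89 in vector cells. In every state the lines lay within 0.09 of each other. At aggregation Trp53 fell by 2.14 ± 0.15 on the log2 scale (limma, both lines in 1 fit, standard error, adjusted p = 0.0092), with -2.21 in AICD cells and -2.07 in vector cells. The median gene moved by -0.31 at this step (-0.13 with quantile normalization), and relative to it Trp53 was at -1.84. The adjusted p in limma was 0.0724 without the vector aggregated array and 0.0827 without the AICD aggregated array. A dimmer probe of Trp53, with 10 spots, was at -4.61 in undifferentiated AICD cells and -3.83 in undifferentiated vector cells, and not well above background on the other 4 arrays. By that probe aggregated cells were at least 2.19-fold below undifferentiated cells in the AICD line and at least 3.98-fold in the vector line. On the aggregated vector array the dim value, -5.82, was above the lowest signal called well above background, -5.94. The vector fold is therefore the observed difference, and the folds of the lines are not on the same basis. It also gave a difference between the lines in undifferentiated cells, -0.78 ± 0.07 (standard error over spots), which the brighter probe, at 0.06, did not show.

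Mdm2 was at 2.15, 1.74 and 1.73 in undifferentiated, aggregated and differentiated AICD cells and at 2.15, 1.81 and 1.64 in vector cells by its brighter probe. That probe has 1 spot per array. The lines lay within 0.09 of each other in each state. The second probe, with up to 10 spots per array, was at -2.53, -2.44 and -2.52 in AICD cells, against -2.73, -1.87 and -2.57 in vector cells. By that probe aggregated AICD cells lay below aggregated vector cells (-0.57 ± 0.06, standard error over spots), where the brighter probe gave -0.07, so the probes of Mdm2 disagree on that array pair.

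The window before the first RefSeq start of Cdkn1a, chr17:29090729-29090978 on the plus strand of GRCm38.p6, is shown because p53 acts on this gene through such sites and because Cdkn1a is the 1 member that was well above background on all 6 arrays and whose lines did not overlap. Capitals mark matches to the p53 half-site consensus, searched on both strands.
Cdkn1a first start: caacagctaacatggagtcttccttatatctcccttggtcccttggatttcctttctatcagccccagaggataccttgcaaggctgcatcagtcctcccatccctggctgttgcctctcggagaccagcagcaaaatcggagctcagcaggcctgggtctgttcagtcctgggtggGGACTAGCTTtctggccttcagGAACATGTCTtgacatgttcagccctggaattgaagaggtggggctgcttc
This window holds 2 matches, and the window of the second Cdkn1a start (chr17:29093519-29093768) holds 0. Bax has the match AGGCAAGCTT, Mdm2 GAACTTGCCT and Trp53 GGACTTGCCC in the 250 bases before a start, while the windows of Cdkn2a, Cdkn2b, Bbc3 and Casp8 hold 0. Of all 32851 windows, 7.13% hold such a match. A match is a run of letters and not a measured site, and 8 of the 9 genes had a window in the table (12 windows), Pmaip1 being the exception.

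Cdkn1a was higher on each AICD array than on any vector array. Its signal was -2.19, -1.97 and -2.22 in undifferentiated, aggregated and differentiated AICD cells, against -2.66, -3.31 and -3.39 in vector cells. The mean over the states was -2.13 ± 0.14 in AICD cells and -3.12 ± 0.40 in vector cells (SD over 3 states, which are no replicates). The log2 difference was 0.47 ± 0.04 in undifferentiated, 1.34 ± 0.04 in aggregated and 1.16 ± 0.03 in differentiated cells (standard error over 10 spots per array), or 1.39-fold, 2.54-fold and 2.24-fold. The step to aggregation was 0.22 ± 0.03 in AICD cells and -0.65 ± 0.05 in vector cells, so the aggregated arrays stood further apart than the undifferentiated ones.

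Pmaip1 was detected in AICD cells only, by 1 probe with 1 spot per array, so its values have no error of their own. Its signal was -1.35, -2.71 and -2.50 in undifferentiated, aggregated and differentiated AICD cells, all well above background, against -7.87, -7.85 and -7.90 in vector cells, none of them so. AICD cells were at least 23.3-fold above vector cells when undifferentiated, at least 9.37-fold when aggregated and at least 11.4-fold when differentiated. With normexp correction the log2 differences were 2.06, 1.52 and 1.77. Of 13377 genes tested, 19 (0.142%), Pmaip1 among them, had this detection on all AICD arrays and no vector array. Pmaip1 was chosen with the difference between the lines known, so the share is only a description. Within the AICD line the step to aggregation was -1.36 and the next step 0.21.

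The other p53 targets that act at mitochondria did not follow Pmaip1. Bbc3 was at 1.90, 2.53 and 2.43 in undifferentiated, aggregated and differentiated AICD cells, against 2.30, 2.03 and 2.25 in vector cells. That gene has 1 spot per array. It was lower in AICD cells before aggregation (-0.40) and higher after it (0.50 and 0.18), and the lines overlapped. Bax was at 2.81, 2.75 and 2.17 in AICD cells, against 3.46, 2.79 and 2.38 in vector cells. Its difference between the lines was -0.64 ± 0.02 in undifferentiated, -0.04 ± 0.02 in aggregated and -0.21 ± 0.02 in differentiated cells (standard error over 10 spots per array), with overlapping lines. Bax was lower in differentiated than in undifferentiated cells, by 1.56-fold in the AICD line and 2.11-fold in the vector line.

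Casp8 showed the reverse pattern to Pmaip1, also by 1 probe with 1 spot per array. Its signal was -7.12, -7.54 and -7.72 in undifferentiated, aggregated and differentiated AICD cells, none well above background, against -1.98, -3.89 and -4.60 in vector cells, all well above it. AICD cells were at least 13.9-fold, 3.61-fold and 2.51-fold below vector cells in these states. The bound was smaller at each later state, as was the vector signal, which had steps of -1.91 to aggregation and -0.71 after replating. With normexp correction the log2 differences were -1.69, -0.53 and -0.48. Of 13377 genes tested, 32 (0.239%), Casp8 among them, had this detection on all vector arrays and no AICD array. Casp8 too was chosen with that difference known, so this share is only a description.

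**Figure D3:**
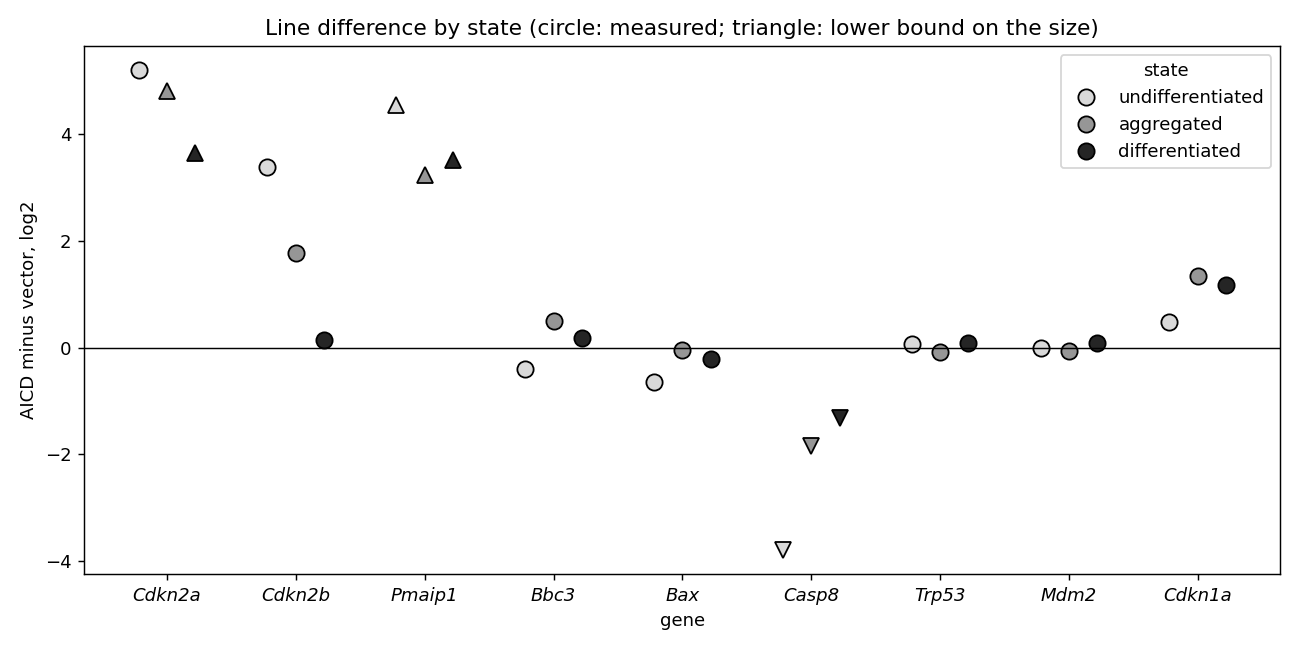
AICD minus vector difference in normalized log2 signal (vertical axis) for each gene (horizontal axis), with undifferentiated, aggregated and differentiated cells in light grey, dark grey and black. Circles are measured differences and triangles lower bounds on their size, which hold only for signals without normexp correction. Cdkn2a, Pmaip1 and Cdkn1a lie above 0 and Casp8 below 0 in all 3 states, and Cdkn2b is at 3.38, 1.77 and 0.15 over the states.

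In all, the 3 AICD arrays did not overlap the 3 vector arrays for 4 of the 9 genes, 3 with AICD higher (Cdkn2a, Pmaip1, Cdkn1a) and 1 with AICD lower (Casp8). Among all 13377 genes tested, 5.12% did not overlap, 2.36% with AICD higher and 2.76% with AICD lower. The members were chosen with this contrast in view, so their share is not read against that figure. By size alone, among genes well above background on both arrays, Cdkn2a and Cdkn2b were at least 2-fold above vector in undifferentiated AICD cells, as were 4.21% of all genes, and 0 members were 2-fold below (4.1% of all genes). In aggregated cells Cdkn2b and Cdkn1a were at least 2-fold above (4.21%) and 0 below (3.12%), and in differentiated cells Cdkn1a was above (4.6%) and 0 below (3.96%).

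The steps between states were not used to choose the genes and were tested with limma over both lines, with Benjamini-Hochberg adjustment over 13377 genes. At aggregation 1 of the 9 genes passed, Trp53, while 42.1% of all genes did (14.3% higher, 27.8% lower; with quantile normalization 44.2% of the called genes were higher, against 33.9% here). The other 8 had adjusted p of 0.112 to 0.606 in limma. Cdkn2b had the largest positive estimate among them, 0.87 ± 0.82, with steps of 0.06 in AICD cells and 1.68 in vector cells. Cdkn2a was at -1.40 ± 0.64, Casp8 at -1.16 ± 0.54 and Pmaip1 at -0.67 ± 0.39, fits that include arrays on which these genes were not well above background. At the step to the differentiated state 0 of the 9 genes passed in limma and 0 had an unadjusted p under 0.05, against 0.0% of all genes passing and 4340 with an unadjusted p under 0.05. Bax had the smallest adjusted p at that step, 0.197 in limma (-0.49 ± 0.21). Both steps share the aggregated arrays.

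**Figure D4:**
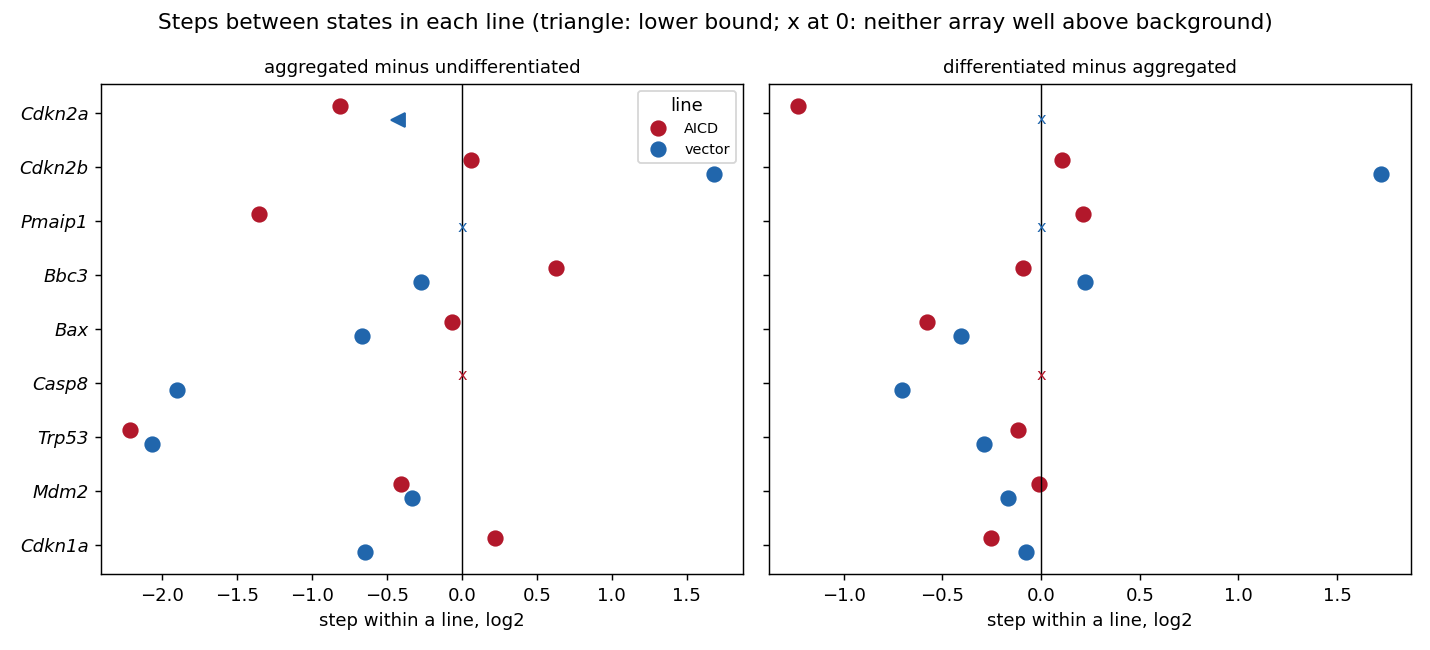
Step in normalized log2 signal (horizontal axis) within the AICD line (red, upper of each pair) and the vector line (blue) for the 9 genes, aggregated minus undifferentiated on the left and differentiated minus aggregated on the right. The triangle is a lower bound on the size and an x marks a gene with neither array well above background; Trp53 lies at -2.21 and -2.07 on the left, and Cdkn2b departs from 0 in the vector line at both steps.

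Around the 9 genes, lists of their pathways were counted without them; some genes stand on more than 1 list. The counts at aggregation were not kept when either aggregated array was left out, and the cause was not tested. Among all genes tested, 14.3% rose and 27.8% fell at aggregation, and the list counts were not tested against these shares. Of 35 tested p53 target genes, 9 rose and 9 fell at aggregation, with a median of -0.08 against -0.31 for all genes. Phlda3, which restrains Akt, fell by 3.13 ± 0.19, while the antiproliferative gene Btg2 rose by 3.06 ± 0.23, Trp53i11 by 2.74 ± 0.18 and the kinase Plk3 by 2.54 ± 0.16 (log2, limma, adjusted p of 0.0079 to 0.0102). Of 24 regulators and relatives of p53, 1 rose and 4 fell (median -0.30). The p53 relative Trp73 fell by 2.37 ± 0.21, the deacetylase Sirt1 by 1.48 ± 0.16 and the corepressor Trim28 by 0.77 ± 0.16, while the kinase Hipk2, which phosphorylates p53, rose by 1.25 ± 0.20.

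Of 44 regulators of the Ink4-Arf locus, 10 rose and 12 fell at aggregation (median -0.13), where 14.3% of all genes rose and 27.8% fell. The RNA-binding protein Lin28a fell by 6.21 ± 0.96, the DNA methyltransferase Dnmt3b by 5.07 ± 0.96 and Cbx7, a Polycomb protein that represses the locus, by 3.60 ± 0.68. Id3, an inhibitor of helix-loop-helix factors, rose to 4.26 in aggregated AICD cells and 4.47 in aggregated vector cells, against 1.85 in AICD and 0.88 in vector cells when undifferentiated (adjusted p = 0.0394 in limma). Cbx7 stood at 1.73, -0.75 and 0.24 in undifferentiated, aggregated and differentiated AICD cells, against 2.64, -2.09 and -1.24 in vector cells. Of 22 Cdk inhibitors and their targets, 8 rose and 4 fell (median 0.17), among them cyclin D2, Ccnd2, at 3.87 ± 0.42, and Cdk6, a kinase bound by the Ink4 proteins, at -2.99 ± 0.44. In the BCL2 family 3 of 15 rose and 4 fell (median -0.06), with Bid, the link from Casp8 to mitochondria, at -1.81 ± 0.28 and the BH3-only gene Bmf at 1.56 ± 0.21. Of 32 caspases, death receptors and their regulators, 5 rose and 10 fell (median -0.35), with the inflammatory caspase Casp1 at -3.17 ± 0.39 and the neurotrophin receptor Ngfr at 2.99 ± 0.32.

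**Figure D5:**
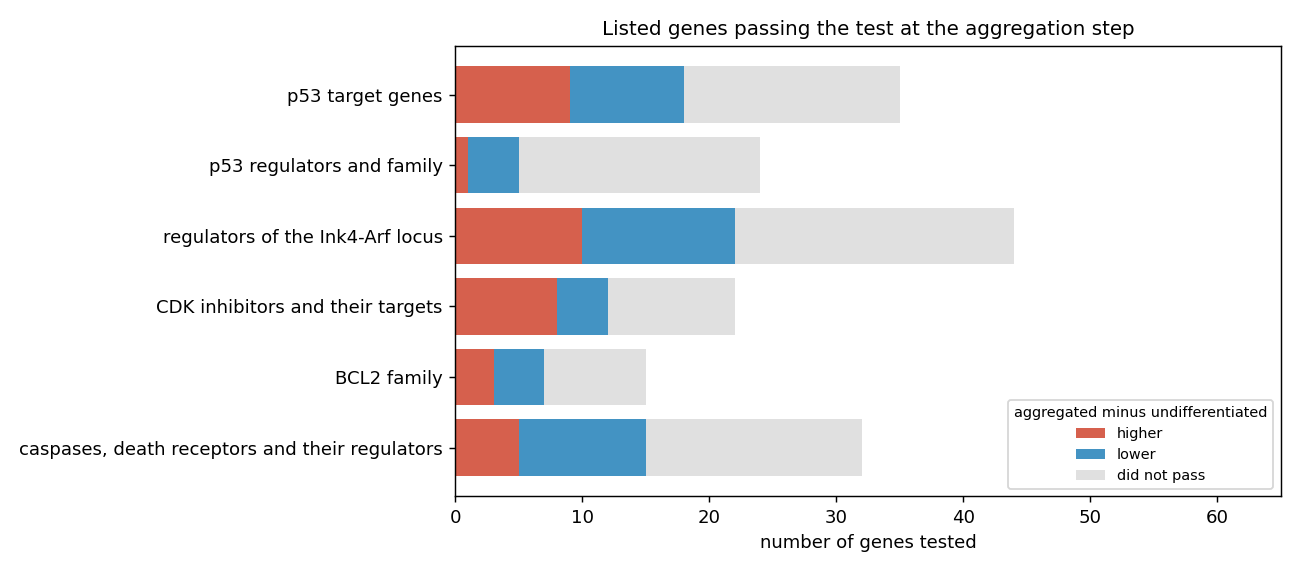
Number of genes tested (horizontal axis) in each of 6 lists (vertical axis), without the 9 genes described above, split by the limma test of aggregated minus undifferentiated cells. Each list holds both higher and lower genes, 9 and 9 for p53 targets and 5 and 10 for caspases and death receptors. Of all genes tested, 14.3% were higher and 27.8% lower.

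None of these 6 lists held a gene that passed between the lines in limma, where 0.351% of all genes did (0.209% higher, 0.142% lower). At an unadjusted p under 0.05 stood 5 of 35 p53 targets, 3 of 24 regulators of p53, 5 of 44 regulators of the locus, 2 of 22 Cdk inhibitors and targets, 1 of 15 BCL2 family genes and 2 of 32 caspases and death receptors, against 1673 of all 13377 genes (12.5%). The list medians lay between -0.03 and 0.10, against 0.00 for all genes. The largest values well above background on all 6 arrays were those of Twist1, a repressor of Ink4-Arf that is also a mesenchyme marker (-2.25 ± 0.21, adjusted p = 0.0581 in limma), the kinase Plk2 (-1.40 ± 0.31, adjusted p = 0.22) and Tbx3, a T-box repressor of the locus (1.34 ± 0.39, adjusted p = 0.323). At the step to the differentiated state the lists held 0 genes that passed, and the Cdk inhibitors and their targets had a median of -0.79 against -0.08 for all genes, with 10 of 22 at an unadjusted p under 0.05 in limma, against 4340 of all 13377 genes (32.4%).

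The genes next to the members in RefSeq gene order (GRCm38.p6) were read for comparison. Beside the Ink4-Arf locus, Mtap, an enzyme of methionine salvage, differed between the lines by -0.04, -0.09 and 0.73 in undifferentiated, aggregated and differentiated cells. On the other side, Dmrta1 was not well above background in undifferentiated cells of either line and differed by -4.51 and -2.99 in the later states (AICD lower), and the neuronal RNA-binding gene Elavl2 by -0.32, -0.06 and -0.60. Ifna4, Ifne and Zfp352 were not well above background on any array. Beside Casp8, its inhibitory relative Cflar differed by -0.53, -0.14 and 0.17, Trak2 by 0.17, 0.48 and 0.13, Stradb by 0.55, 0.16 and -0.43 and Ndufb3 by 0.02, 0.31 and -0.13 (AICD minus vector throughout), none of them 2-fold apart. Flacc1 and C2cd6 were not well above background on any array. Beside Pmaip1, Ccbe1, which acts in lymphatic growth, was higher in AICD cells by 2.76, 2.77 and 4.79 (adjusted p = 0.116 in limma over the states), while Lman1, Mc4r, Gnal and Chmp1b differed by at most 0.68 in size in every state and Cplx4 was not well above background.

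The genes whose pattern over the 6 arrays was nearest to Cdkn2a, Pmaip1 and Casp8 were found by the root mean square difference of centred log2 signals, with signals not well above background set to the lowest one that was. For Cdkn2a these were Gypc (0.295), which encodes a red cell membrane protein, Plin2 (0.393), a coat protein of lipid droplets, and the homeobox gene Hoxb13 (0.448), against a median of 2.37 over the other genes. For Pmaip1 they were Calr3 (0.313), a calreticulin, Tfpi (0.336), an inhibitor of blood clotting, and Mettl7a1 (0.480), against a median of 1.97. For Casp8 they were Tmc6 (0.294), Oas1c (0.359) and Xk (0.409), against a median of 1.41. Plin2, Calr3, Tfpi and Tmc6 were well above background on all 6 arrays, so they do not share the detection pattern of the member they are nearest to. The nearest genes were picked by this distance from the same 6 arrays, so it is a description.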

How the data were processed

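RNA of 6 samples was read on 6 Agilent single-colour (Cy3) arrays with 45018 spots each. Per the file headers and the submitters' processing notes, the authors extracted the spots with Agilent Feature Extraction 10.1.1.1. The processed signal is an intensity that, per the file headers, had been background-subtracted and detrended on each array separately. The authors also deposited a score for 41252 probes, of which 23271 carry no value at all, on a scale that is not stated. Every listed score matched, within 0.01, a log2 signal centred on the array's percentile and then on the probe's median, negative ones being inverted so that their sign is lost. It was not tested (column medians 0.967 to 1.23). The array header names build mm9; sequences are from GRCm38.p6.

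Outlier spots and 1639 controls were left out and spots of a probe averaged. Of 41174 probes, 24836 received a symbol through their RefSeq accession (17174 genes) and 16338 did not; 27 lacked a value on at least 1 array. Signals were log2 minus the array's 75th percentile. Probes well above background on at least 2 arrays were kept (28457), and the probe with the highest mean stood for a gene, leaving 13377. limma 3.58.1 in R 4.3.3 fitted terms for state and line, with eBayes (2 residual and 2.05 prior degrees of freedom) and Benjamini-Hochberg adjustment at 0.05, two-sided; the error it uses is how much the line difference varies from state to state. The labels name no separate cultures, so p-values measure only the spread between these arrays, which may be technical. The fit was tested on simulated data.

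The members, the pathway lists and the rules were chosen with earlier results of these data known. Named are all 9 members, up to 4 called genes with the largest estimate per list and step, or up to 2 as values where none was called, 3 neighbours per side and the 3 nearest patterns; some of these list genes are not printed. Cbx7's values by array were added after they were seen. Alternatives were normexp correction, quantile normalization, other filters and probe rules, an intensity trend, a fit within the second slide and leaving out each array. The files hold no mean signal, so normexp (offset 50) was run on median signals, a choice made after seeing the data.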

Additional observations from a re-analysis of the deposited data

Results flagged for a closer look

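For 3 steps of members the lines moved in opposite directions with all 4 arrays well above background; each line has 1 array per state, so the difference was not tested. Bbc3 had a step to aggregation of 0.63 in AICD cells and -0.27 in vector cells, a difference of 0.903 on the log2 scale. At the step to the differentiated state Bbc3 was at -0.09 in AICD cells and 0.22 in vector cells, a difference of -0.318. Cdkn1a had a step to aggregation of 0.22 in AICD cells and -0.65 in vector cells, a difference of 0.870, with standard errors over spots of 0.03 and 0.05.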

How the results depend on the processing

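Trp53, the member that passed a test, kept its direction under every alternative run (-2.22 to -1.87). Of the members' fitted steps under alternatives, 197 kept their direction and side of the threshold and 18 changed sign without passing in either fit (adjusted p of 0.331 or more under the alternative in limma); Trp53 at aggregation no longer passed without the vector aggregated (adjusted p = 0.0724) or the AICD aggregated array (adjusted p = 0.0827) in limma. Pmaip1 passed at aggregation with normexp correction (-0.82, adjusted p = 0.0234; 0.0603 to 0.886 under the other alternatives) and Casp8 without the AICD undifferentiated array (-2.04, adjusted p = 0.0314; 0.139 to 0.497 under the others). The sign changes were these. With normexp the replating step was -0.49 for Cdkn2a and -0.0136 for Pmaip1, with quantile normalization -0.16 for Cdkn2a, and with the mean of all probes the aggregation step of Mdm2 was 0.0521. Leaving out 1 array at a time, the aggregation step ranged from -0.34 to 2.09 for Cdkn2b, from -0.61 to 0.17 for Cdkn1a and from -0.19 to 0.55 for Bbc3. The replating step ranged from -0.94 to 0.99 for Cdkn2a, from -0.30 to 2.13 for Cdkn2b, from -0.33 to 0.49 for Pmaip1, from -1.08 to 0.19 for Casp8, from -0.43 to 0.10 for Cdkn1a and from -0.24 to 0.37 for Bbc3; the cause was not tested. The count at aggregation, 5632, was 0 without either aggregated array, 1120 without the vector and 3736 without the AICD undifferentiated array, and 4184 without either differentiated array (range 0 to 4184); the cause was not tested. The count after replating, 0, was 1389 with normexp, 733 with genes well above background on all 6 arrays and 1087 with an intensity trend, and 0 without any 1 array. The count between the lines, 47, was 78 with normexp, 0 with no filter on dim probes (1843 at an unadjusted p under 0.05), 97 within the second slide and without either undifferentiated array, which is the same set of complete pairs, and 0 without any other array (1054 to 1269 at an unadjusted p under 0.05). Without the vector aggregated or the AICD aggregated array 0 listed genes passed at aggregation; of the list counts, 187 kept within 1.5 times and 41 did not. Of the members' line differences, 176 moved by less than the spread over states and 19 by more. The larger moves came mostly with normexp, whose added offset of 50 draws dim signals together. With normexp Cdkn2a was at 2.37 over the states, Pmaip1 at 1.79 and Casp8 at -0.90. Counted over all of these line differences, moved or not, 14 changed sign. All 14 were of Trp53, Mdm2 or Bbc3 and at most 0.09 in size beforehand. The replicate block is the state: every fit sets the lines against each other within a state, and each line and state has 1 array. Dim signal limits Cdkn2a, Pmaip1 and Casp8, whose folds are mostly bounds. It also limits Cdkn2b in undifferentiated vector cells, whose aggregation step was 0.87 in the main fit and 0.23 with normexp.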
